A study of Rattus norvegicus with 12 samples.

Results

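Purinergic signalling was followed here through 10 genes of the rat cerebral cortex. The group holds 2 ATP-gated ion channels (P2rx4, P2rx7), 3 G protein-coupled nucleotide receptors (P2ry1, P2ry2, P2ry6), 2 ectoenzymes that turn extracellular ATP into adenosine (Entpd1, Nt5e), 2 adenosine receptors (Adora1, Adora2b) and adenosine kinase (Adk). The members were taken by gene symbol, and all 10 were present among the 17268 gene symbols of the count table.

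The 12 libraries came from cortical tissue of adult male Sprague Dawley rats in 4 groups with 3 libraries each. Sham animals had the surgery without a clot, and Model animals had a clot placed in the middle cerebral artery (embolic stroke) and no further treatment. The rt-PA animals had the same clot and received recombinant tissue plasminogen activator, a clot-dissolving protease, at 6 h. The rt-PA+Acu animals had the clot, acupuncture at GV26 and PC6 at 2 h and rt-PA at 6 h. No group received acupuncture without rt-PA, so the acupuncture comparison was always made on top of the drug. The time at which tissue was taken for RNA is not given in the sources used here, and tissue pieces of several cell types were measured together. A lower level in such tissue can come from fewer cells of a type or from less RNA per cell, and these cannot be told apart.

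ATP leaves injured, activated or dying cells through channels such as pannexins and connexins and acts on P2X ion channels and P2Y receptors of glia, neurons, blood vessels and leukocytes. Entpd1 (CD39) strips phosphates from ATP and ADP to give AMP, Nt5e (CD73) converts AMP into adenosine, and adenosine then acts on the Adora receptors. Adenosine kinase, in the adult brain mainly an astrocyte enzyme, removes adenosine by phosphorylating it back to AMP, so Nt5e and Adk stand at the producing and the removing end of the adenosine pool.

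Promoters of 3 genes are shown as those of the called genes with the largest fold among the ectoenzymes (Nt5e), the P2Y receptors (P2ry2) and the adenosine-removing side (Adk). They come from RefSeq (rat build GRCr8) and span 250 bases before to 50 bases after the annotated start, printed 5′ to 3′ on the strand of the gene. Capitals mark the GC box GGGCGG on either strand in Nt5e (chr8:98150675-98150974, plus strand) and Adk (chr15:3295696-3295995, minus strand). In P2ry2 (chr1:164779439-164779738, minus strand) capitals mark ACGTG, a core sequence of the hypoxia response element, which reads on both strands there in overlapping matches. Other forms of that core were not searched.
Nt5e: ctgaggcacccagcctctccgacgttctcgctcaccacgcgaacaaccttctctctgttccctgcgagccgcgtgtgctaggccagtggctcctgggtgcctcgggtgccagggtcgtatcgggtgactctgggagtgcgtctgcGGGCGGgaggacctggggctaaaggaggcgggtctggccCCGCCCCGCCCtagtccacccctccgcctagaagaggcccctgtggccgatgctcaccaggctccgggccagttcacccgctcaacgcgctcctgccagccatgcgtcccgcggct
Adk: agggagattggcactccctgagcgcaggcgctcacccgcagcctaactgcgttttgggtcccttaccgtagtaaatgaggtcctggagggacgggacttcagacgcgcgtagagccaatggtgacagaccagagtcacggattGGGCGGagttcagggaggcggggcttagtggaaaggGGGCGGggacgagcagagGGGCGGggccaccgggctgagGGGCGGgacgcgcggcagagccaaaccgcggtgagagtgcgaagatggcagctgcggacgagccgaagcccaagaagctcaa
P2ry2: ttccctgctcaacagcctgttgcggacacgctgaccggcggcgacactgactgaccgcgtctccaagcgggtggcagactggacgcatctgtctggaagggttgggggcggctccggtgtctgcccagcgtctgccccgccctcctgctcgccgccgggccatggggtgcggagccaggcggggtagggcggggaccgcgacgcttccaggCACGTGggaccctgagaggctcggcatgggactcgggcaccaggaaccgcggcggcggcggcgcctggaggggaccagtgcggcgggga

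The table held a promoter for 9 of the 10 genes, P2ry6 being the one without an entry. The GC box was present in 6 of the 9 (P2rx7, P2ry1, P2ry2, Nt5e, Adora2b and Adk), and in 33.1% of all 33469 promoters of this length. ACGTG was found in P2ry2 alone among the 9, against 19.3% of all promoters. The letters of the AP-1 site (TGANTCA), the cyclic AMP response element (TGACGTCA) and the STAT site (TTCNNNGAA) were in none of the 9 windows, and in 7.33%, 1.83% and 8.87% of all promoters. The matches are letters only and do not show that a factor was bound. In the RefSeq gene order, P2ry2 and P2ry6 are neighbours on chromosome 1 with no protein-coding gene between them, and P2rx4 and P2rx7 are neighbours on chromosome 12 in the same way.

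The libraries held 11678450 to 13616935 counts each, so depth was nearly even. Levels are given as CPM, each gene's counts scaled to the TMM-adjusted library size, and changes as log2 fold changes with their standard error (SE) from edgeR's quasi-likelihood test on the 6 libraries compared. A gene was called when its adjusted p, by Benjamini-Hochberg over all genes tested, was under 0.05 and its change over 2-fold. The libraries are separate samples by their labels, and where nothing says that each came from its own animal, the p-values measure the spread between these samples. Model replicate 3, rt-PA replicate 2 and rt-PA+Acu replicate 3 lay farther from the other libraries of their groups than those lay from each other, and calls lost when 1 library was left out are given beside the gene. All 8 neuron markers were detected, with sums of 3886 to 6598 CPM. After stroke 4 of them were lower and 2 higher at an adjusted p under 0.05, which 54% of all genes passed. Model and rt-PA each enter 2 of the 4 comparisons, as do Sham and rt-PA+Acu, so comparisons that share a group are not independent.

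After embolic stroke Nt5e and Adk, at the producing and the removing end of the adenosine pool, differed from Sham in opposite directions. Compared to Sham, Nt5e rose 3.21-fold and Adk fell 2.40-fold, while the UDP and UTP receptors P2ry6 and P2ry2 rose. Of the 10 genes, 3 were called higher and 1 lower, against 9.43% and 12% of the 12884 genes tested (21.5% in both directions). At any fold 5 passed the adjusted p of 0.05, against 54% of all genes, the 5th being Adora2b. The 3 libraries of Model did not overlap those of Sham for 5 of the 10 genes, against 63.7% of all genes. The median absolute log2 change was 0.647 over the 10 genes and 0.484 over all genes, and the median log2 change was −0.295 against 0.0142.

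Delayed rt-PA left every one of the 10 genes uncalled against Model, as it did all 12941 genes tested (0% called). At an unadjusted p under 0.05 edgeR listed 2 of the 10, P2ry2 and Entpd1, against 9.92% of all genes. These 2 were also the members whose libraries did not overlap, against 16% of all genes. DESeq2 called 1 of the 10, P2ry2. The share of all genes that DESeq2 called is not reported here for any comparison, so its counts have no background beside them. In the comparison of rt-PA+Acu with rt-PA, 4 genes were called lower (P2ry2, P2ry6, Entpd1 and Nt5e) and 1 higher (Adk), against 8.16% and 7.17% of the 12999 genes tested (15.3% in both directions). The same 5 were those that passed at any fold, against 34.8% of all genes. The libraries did not overlap for 8 of the 10 genes, against 51.2% of all genes. The median absolute log2 change was 0.809, against 0.397 over all genes. None of the 10 was called between rt-PA+Acu and Sham, where 2.06% of 12775 genes were called; at an unadjusted p under 0.05 edgeR listed 1 of the 10, Entpd1, against 23.2% of all genes, and DESeq2 called none. Entpd1 was also the 1 member without overlap there, against 30.7% of all genes.

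**Figure D1:**
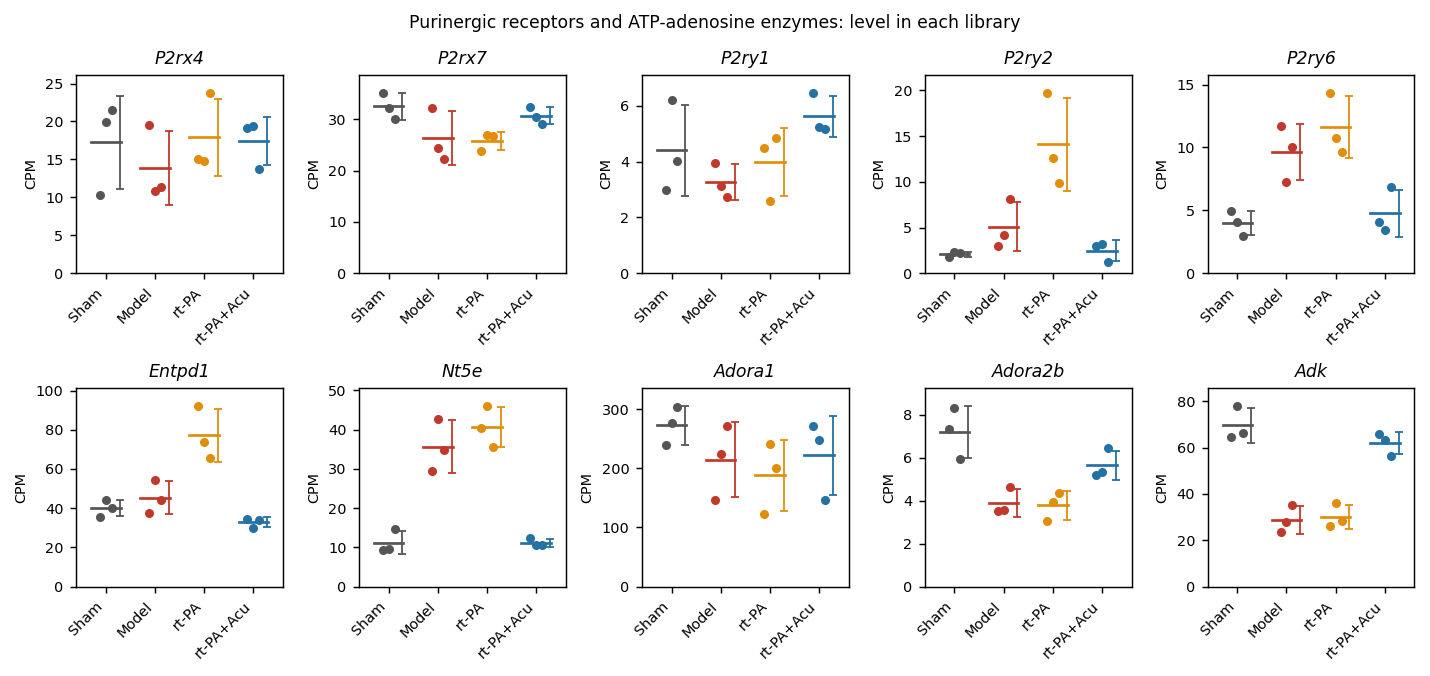
Level of the 10 purinergic genes (CPM, linear axis from 0) in each of the 12 libraries by group; points are libraries, horizontal lines group means and error bars 1 SD (n = 3). Nt5e lies between 29.4 and 46.1 CPM in the Model and rt-PA libraries and between 9.38 and 14.7 in the others, and Adk shows the opposite arrangement.

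The P2X channels moved little. P2rx4, an ATP-gated channel of microglia and neurons, read 10.3, 20 and 21.6 CPM in the Sham libraries, 19.5, 10.8 and 11.4 in Model, 15.1, 14.8 and 23.8 in rt-PA and 19.1, 19.4 and 13.7 in rt-PA+Acu. All 4 groups overlapped, and the range within Sham was wider than the gap between any of the group means, which lay between 13.9 and 17.9 CPM. The log2 change was −0.30 (SE 0.32, 95% interval −1.04 to 0.45) in Model against Sham, with an edgeR adjusted p of 0.465.

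P2rx7, the ATP-gated channel best known for inflammasome activation in myeloid cells, was steadier. Its CPM was 35.2, 32.3 and 30.1 in Sham and 32.3, 24.4 and 22.3 in Model. It was 23.9, 27.0 and 26.7 in rt-PA and 32.5, 30.5 and 29.1 in rt-PA+Acu, where every library lay above every rt-PA library. The order of means was Sham (32.5), rt-PA+Acu (30.7), Model (26.3) and rt-PA (25.8), and the libraries of neighbours in that order overlapped.

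Neither difference in P2rx7 passed the test. Its log2 change was −0.29 (SE 0.16, 95% interval −0.66 to 0.07) after stroke, with an edgeR adjusted p of 0.149. Without Model replicate 1 the change was −0.47 and the adjusted p 0.0196. With acupuncture the change was 0.25 (95% interval −0.03 to 0.53), with an edgeR adjusted p of 0.143.

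The P2Y receptors separated into P2ry1 on one side and P2ry2 and P2ry6 on the other. P2ry1, a receptor for ADP found on platelets, astrocytes and neurons, was low, with 2.99, 6.2 and 4.02 CPM in Sham, 3.97, 3.13 and 2.73 in Model, 4.51, 2.58 and 4.86 in rt-PA and 6.48, 5.23 and 5.17 in rt-PA+Acu. These last 3 libraries were all above those of rt-PA and Model, and the other groups overlapped. The log2 change of rt-PA+Acu against rt-PA was 0.50 (95% interval −0.20 to 1.19), with an edgeR adjusted p of 0.228.

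P2ry2, a receptor for ATP and UTP, had the widest swing of the 10 genes. Its counts were 22, 30 and 25 in Sham, 39, 50 and 98 in Model, 285, 176 and 134 in rt-PA and 36, 37 and 16 in rt-PA+Acu. The corresponding CPM were 1.78, 2.30 and 2.18, then 2.98, 4.23 and 8.10, then 19.8, 12.6 and 9.88, and finally 3.03, 3.23 and 1.2. All Model libraries lay above all Sham libraries, all rt-PA libraries lay above all Model libraries, and the rt-PA+Acu libraries lay on both sides of the Sham range and overlapped the lowest Model library.

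In Model against Sham P2ry2 changed by 1.29 on the log2 scale (SE 0.40, 95% interval 0.37 to 2.21), with an edgeR adjusted p of 0.0252. This call rested on single libraries. Without Model replicate 3 the change was 0.80 with an adjusted p of 0.0716, and without Sham replicate 1, 2 or 3 the adjusted p was 0.083, 0.0614 and 0.0658. Between rt-PA and Model the change was 1.47 (SE 0.41, 95% interval 0.52 to 2.42), with an edgeR adjusted p of 0.351 and a DESeq2 adjusted p of 0.0362.

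Between rt-PA+Acu and rt-PA, P2ry2 was 5.71-fold lower, a log2 change of −2.51 (SE 0.41, 95% interval −3.48 to −1.55) with an edgeR adjusted p of 0.00509. Against Sham the rt-PA+Acu level differed by 0.24 on the log2 scale (95% interval −0.71 to 1.19). P2ry2 is among the genes that the study selected from these same libraries for its acupuncture response, so its direction here is not independent evidence of that response.

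P2ry6, the receptor for UDP that is linked to phagocytosis by microglia, followed a like course with a smaller rt-PA step. It read 4.93, 4.06 and 2.97 CPM in Sham, 11.7, 7.28 and 10 in Model, 14.4, 10.8 and 9.66 in rt-PA and 4.04, 3.40 and 6.89 in rt-PA+Acu. The 6 Model and rt-PA libraries were all above the 6 Sham and rt-PA+Acu libraries, the closest being Model replicate 2 and rt-PA+Acu replicate 3. The log2 change was 1.28 (SE 0.27, 95% interval 0.66 to 1.9) after stroke with an edgeR adjusted p of 0.00445, and 0.27 (95% interval −0.30 to 0.83) with rt-PA against Model.

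With acupuncture added, P2ry6 lay below its rt-PA level by a log2 change of −1.27 (SE 0.31, 95% interval −1.99 to −0.55), with an edgeR adjusted p of 0.0176. Leaving out rt-PA replicate 1, rt-PA+Acu replicate 1 or rt-PA+Acu replicate 2 gave changes of −1.09, −1.16 and −1.08 and adjusted p-values of 0.0618, 0.0607 and 0.0604.

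Markers of leukocytes moved along with P2ry2 and P2ry6 in part. The neutrophil sums of Sham and Model overlapped, where both genes were called higher. The macrophage sums of rt-PA+Acu all lay below those of Sham, where both genes overlapped. The summed CPM of 8 monocyte and macrophage markers was 185 to 229 in Sham, 288 to 397 in Model, 489 to 885 in rt-PA and 102 to 146 in rt-PA+Acu. Of the 7 of these markers tested, 3 were called higher in Model than in Sham, against 9.43% of all genes. Another 1 was lower at an adjusted p under 0.05 and under 2-fold. The mean of Fn1, the largest of the 8 in Sham, went from 144.1 CPM in Sham to 98.9 in Model. With acupuncture added to rt-PA, 7 were called lower, against 8.16% of all genes. The sum of 7 neutrophil markers was 7.27 to 11.9 CPM in Sham, 4.96 to 17.1 in Model, 15.1 to 82.1 in rt-PA and 3.75 to 5.47 in rt-PA+Acu, and rt-PA replicate 1, the highest in P2ry2, was also the highest of the 12 libraries in both sums. The neutrophil gene Mmp8 was at 0 counts in all 3 rt-PA+Acu libraries, Camp and Ngp had at most 5 counts in any library, and the monocyte gene Ccr2 was at 0 in Sham replicate 1 and rt-PA+Acu replicate 1. The sum of the 7 microglial markers in the table stayed within 440 to 674 CPM over all libraries. The part of these cells in the P2ry2 and P2ry6 levels was not tested.

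Of the ectoenzymes, Nt5e was called after stroke and Entpd1 was not; that difference was not tested. Entpd1 (CD39), which is carried by microglia, endothelium and leukocytes, read 35.7, 44.0 and 40.2 CPM in Sham and 37.5, 54.4 and 44.1 in Model. It read 92.2, 73.8 and 65.4 in rt-PA and 34.3, 29.8 and 34.2 in rt-PA+Acu. Sham and Model overlapped, every rt-PA library was above every other library, and every rt-PA+Acu library was below every Sham library.

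Stroke alone changed Entpd1 by 0.19 on the log2 scale (SE 0.15, 95% interval −0.15 to 0.53), with an edgeR adjusted p of 0.307. It was 0.77 (SE 0.18, 95% interval 0.36 to 1.18) in rt-PA against Model, a 1.71-fold difference with an edgeR adjusted p of 0.313 and a DESeq2 adjusted p of 0.0147. In rt-PA+Acu against rt-PA it was −1.24 (SE 0.15, 95% interval −1.59 to −0.88), a call with an edgeR adjusted p of 0.00197.

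The gap of Entpd1 between rt-PA+Acu and Sham, −0.29 (95% interval −0.56 to −0.01), had an edgeR adjusted p of 0.201. Marker sums moved with this gene in some comparisons only. From Sham to Model the endothelial and macrophage sums rose without overlap, where the Entpd1 libraries overlapped. Between Model and rt-PA the endothelial sums overlapped and the Entpd1 libraries did not. The 5 endothelial markers in the table summed to 134 to 181 CPM in Sham, 204 to 381 in Model, 257 to 378 in rt-PA and 88.4 to 97.6 in rt-PA+Acu. Only 1 of the 5, Kdr, was called after stroke, from a mean of 16.4 to 117.5 CPM, while 9.43% of all genes were called higher. Tek and Tie1 had lower means in Model than in Sham. In the acupuncture comparison 3 of the 5 were called lower, against 8.16% of all genes. In the 3 rt-PA libraries, in the order of replicates given for Entpd1, the macrophage sums were 885, 489 and 516 CPM and the neutrophil sums 82.1, 34.7 and 15.1. The part of endothelial cells, macrophages and neutrophils in the Entpd1 level was not tested.

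Nt5e (CD73), the enzyme that forms adenosine from AMP, was already higher after stroke without rt-PA. Its CPM was 9.38, 9.57 and 14.7 in Sham and 29.4, 42.7 and 34.9 in Model. It was 40.4, 46.1 and 35.7 in rt-PA and 12.3, 10.6 and 10.6 in rt-PA+Acu. The lowest of the 6 Model and rt-PA libraries, at 29.4 CPM, lay above the highest of the other 6, at 14.7, and Sham and rt-PA+Acu overlapped.

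For Nt5e the log2 change was 1.68 (SE 0.22, 95% interval 1.19 to 2.18) in Model against Sham, with an edgeR adjusted p of 0.000382. With rt-PA it differed from Model by 0.19 (95% interval −0.19 to 0.58). With acupuncture added it was 3.66-fold lower than after rt-PA alone, a log2 change of −1.87 (SE 0.15, 95% interval −2.22 to −1.52) with an edgeR adjusted p of 0.00104. Its mean was 11.1 ± 1.00 CPM (SD, n = 3) in rt-PA+Acu and 11.2 ± 3.00 in Sham, a log2 difference of −0.01 whose 95% interval ran from −0.50 to 0.48.

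The adenosine receptors responded unequally. Adora1, the inhibitory adenosine receptor of neurons, read 239, 276 and 304 CPM in Sham, 146, 225 and 272 in Model, 122, 241 and 201 in rt-PA and 271, 247 and 146 in rt-PA+Acu. All groups overlapped, and the SD was 63.5, 60.4 and 66.4 CPM in the 3 groups of clot animals against 32.6 in Sham. The log2 change after stroke was −0.34 (SE 0.20, 95% interval −0.80 to 0.12), with an edgeR adjusted p of 0.187.

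The Adora1 result after stroke moved with single libraries. The change was −0.13 (adjusted p 0.446) without Model replicate 1 and −0.54 (adjusted p 0.0300) without Model replicate 3. Within each of the 4 groups the order of the 3 libraries in Adora1 was also their order in the summed CPM of 6 oligodendrocyte markers, a pattern picked out after the values were seen. Those sums were 12010, 15130 and 17910 in Sham, 1673, 3793 and 8509 in Model, 2694, 11430 and 3361 in rt-PA and 21070, 8744 and 3224 in rt-PA+Acu. The part of white matter content in the Adora1 level was not tested.

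Adora2b, a low-affinity adenosine receptor of vessels and glia, was lower after stroke. It read 7.36, 8.35 and 5.94 CPM in Sham and 3.51, 3.55 and 4.63 in Model. It read 3.05, 3.95 and 4.35 in rt-PA and 5.22, 5.32 and 6.44 in rt-PA+Acu. The 6 Model and rt-PA libraries were all below the other 6, and Sham and rt-PA+Acu overlapped.

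The log2 change of Adora2b in Model against Sham was −0.88 (SE 0.24, 95% interval −1.42 to −0.34). Its edgeR adjusted p of 0.0136 passed the threshold and its size did not reach 2-fold. Without Sham replicate 3 or Model replicate 3 the change was −1.01 and −1.02. Over all 13 alternatives, in edgeR or DESeq2, it ran from −1.02 to −0.77, and the highest adjusted p was 0.062. In rt-PA+Acu against rt-PA the change was 0.58 (95% interval 0.01 to 1.16), with an edgeR adjusted p of 0.104.

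Adk, which clears adenosine, fell after stroke and overlapped Sham in the acupuncture group. Its CPM was 64.4, 78.0 and 66.3 in Sham and 23.4, 27.7 and 35.4 in Model. It was 26.2, 36.0 and 28.3 in rt-PA and 65.7, 63.2 and 56.5 in rt-PA+Acu. No Model or rt-PA library exceeded 36.0 CPM and no Sham or rt-PA+Acu library was under 56.5 CPM.

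For Adk the log2 change was −1.27 (SE 0.16, 95% interval −1.62 to −0.91) in Model against Sham, with an edgeR adjusted p of 0.000323. It was 0.07 (95% interval −0.37 to 0.51) in rt-PA against Model. With acupuncture added it was 2.05-fold higher than after rt-PA alone, a log2 change of 1.04 (SE 0.15, 95% interval 0.70 to 1.37) with an edgeR adjusted p of 0.00307. That change lay close to the 2-fold threshold. It was 0.94 with library size as the only scaling, and 0.94, 0.99 and 0.99 without rt-PA replicate 1, rt-PA replicate 3 and rt-PA+Acu replicate 1, with an adjusted p of at most 0.0158 in each.

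Against Sham, Adk in rt-PA+Acu differed by −0.17 on the log2 scale (95% interval −0.42 to 0.08). Astrocyte markers moved in the same directions as Adk. The sum of 6 such markers was 2978 to 3655 CPM in Sham, 1544 to 1714 in Model, 1239 to 1743 in rt-PA and 2444 to 3146 in rt-PA+Acu. All 6 passed an adjusted p of 0.05 after stroke and with acupuncture, against 54% and 34.8% of all genes. After stroke 5 were called lower, against 12% of all genes, and with acupuncture 4 were called higher, against 7.17%. The part of astrocytes in the Adk level was not tested. RefSeq also lists an Adk pseudogene, Adk-ps1, and how reads that match both were counted is not given in the sources used here.

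**Figure D2:**
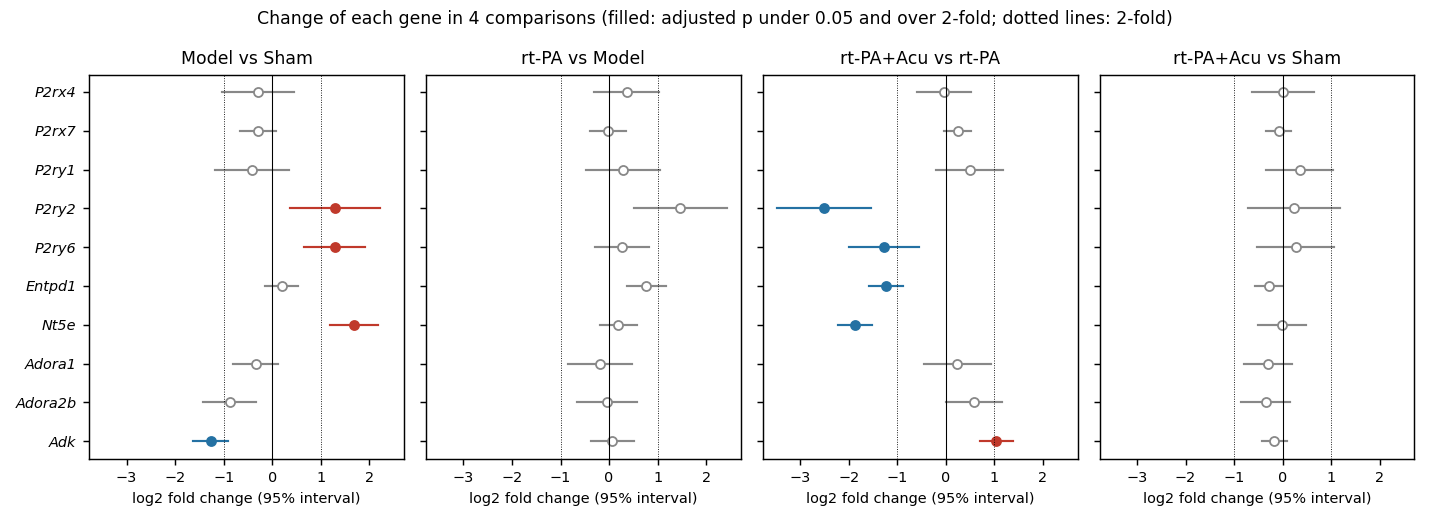
Log2 fold change of the 10 purinergic genes (x axis) with its 95% interval in the 4 comparisons, 3 libraries against 3; filled symbols are called genes, and dotted lines mark 2-fold. The filled symbols are 4 in Model against Sham, 0 in rt-PA against Model, 5 in rt-PA+Acu against rt-PA and 0 in rt-PA+Acu against Sham.

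Nt5e and Adk split the 12 libraries into the same sets of 6. P2ry6 and Adora2b made the same split. So did several other pathway genes, among them P2ry12, P2ry13, Adora3, Entpd3, Nt5c1a, Gja1, Calhm2, Enpp3, Alpl and Panx1. The share of all genes that did so was not counted. Over the 12 libraries the Pearson correlation of the log2 CPM of Nt5e with that of Adk was −0.907. It is given as a description since the libraries of a group share their treatment. The other pairs with large values were Adora2b with Adk (0.903), P2ry6 with Adk (−0.887), Nt5e with Adora2b (−0.881) and P2ry2 with Entpd1 (0.865). Between genes of one receptor family the values were 0.31 for P2rx4 with P2rx7, 0.505 for Adora1 with Adora2b, 0.696 for P2ry2 with P2ry6, and −0.316 and −0.418 for P2ry1 with P2ry2 and with P2ry6.

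**Figure D3:**
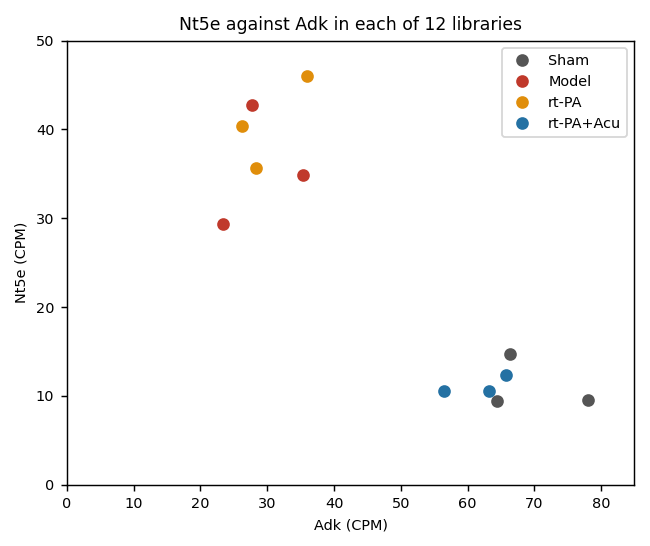
Nt5e against Adk in each of the 12 libraries, both axes in CPM from 0, coloured by group. Sham and rt-PA+Acu libraries lie at 56.5 CPM of Adk and above with at most 14.7 CPM of Nt5e, and Model and rt-PA libraries at 36.0 CPM of Adk and under with at least 29.4 CPM of Nt5e.

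The 3 genes whose log2 CPM ran closest to each called member, among 13296 genes over 12 libraries, were found by Pearson correlation and carry no test. For Nt5e these were Birc2 (0.982), Rai14 (0.981) and Kctd10 (0.974). For Adk they were Itm2b (0.988), Thsd7b (0.988) and Ankrd34a (0.987). For Entpd1 they were Myo1g (0.974), Plscr2 (0.971) and Anpep (0.965). P2ry2 ran closest with the chemokine gene Ccl9 (0.959), Rspo3 (0.949) and Fes (0.946), and P2ry6 with Coq10b (0.981) and the ribosomal protein genes Rpl18 (0.975) and Rpl3 (0.974).

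The wider pathway was followed through 49 further genes of P2X, P2Y and adenosine receptors, nucleotide-splitting enzymes, nucleoside transporters and ATP release channels, of which 47 were in the table. After stroke 2 of the 38 tested were called higher and 11 lower, against 9.43% and 12% of all genes, with a median log2 change of −0.357. In rt-PA against Model none of 37 was called, and 7 had an unadjusted p under 0.05 in edgeR, against 9.92% of all genes. DESeq2 called none of the pathway genes there, with its share of all genes not reported here. In rt-PA+Acu against rt-PA 6 of 39 were called higher and 3 lower, against 7.17% and 8.16% of all genes, with a median log2 change of 0.31. In rt-PA+Acu against Sham 2 of 37 were called, both lower, against 1.14% of all genes.

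Of the 5 other P2X channel genes, 3 were tested after stroke and 4 in rt-PA+Acu against rt-PA, and none was called. The shares of all genes called were 21.5% and 15.3%. Of the 4 other P2Y receptors tested, 3 were called lower after stroke (P2ry12, P2ry13 and P2ry14), against 12% of all genes. P2ry4, named here after its values were seen, was not called, with a log2 change of 0.35 and an edgeR adjusted p of 0.116. P2ry12, the ADP receptor that marks homeostatic microglia, read 69.8, 63.1 and 65.4 CPM in Sham, 6.41, 4.91 and 4.38 in Model, 3.33, 4.81 and 3.54 in rt-PA and 37.8, 40.2 and 19.5 in rt-PA+Acu. Its log2 change was −3.64 (SE 0.16, edgeR adjusted p 4.31e-06) after stroke, 3.06 (SE 0.32, adjusted p 0.00133) with acupuncture, and −1.03 (SE 0.24, adjusted p 0.0483) in rt-PA+Acu against Sham. P2ry12 in rt-PA+Acu was thus above rt-PA and below Sham, and the call against Sham was lost in 6 of 13 alternatives, with an adjusted p of 0.154, 0.165 and 0.131 without Sham replicate 1, 2 or 3, and 0.0675 without rt-PA+Acu replicate 2. Without rt-PA+Acu replicate 3 the change was −0.77, under 2-fold.

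P2ry13, its ADP-sensing neighbour on chromosome 2, read 20.1, 17.8 and 13 CPM in Sham, 1.53, 1.44 and 0.827 in Model, 0.416, 0.789 and 0.442 in rt-PA and 12.4, 13.8 and 5.77 in rt-PA+Acu. Its log2 change was −3.72 (edgeR adjusted p 4.00e-05) after stroke and 4.25 (adjusted p 0.00139) with acupuncture. P2ry14, a receptor for UDP-glucose, changed by −1.11 after stroke (edgeR adjusted p 0.0133) and by 0.69 with acupuncture (adjusted p 0.145). Its call after stroke was lost without Sham replicate 2 (−0.97, adjusted p 0.0614) and without Model replicate 1 (−0.98, under 2-fold). Of the 7 microglial markers in the table, 3 were called lower after stroke, against 12% of all genes, while the sum of the 7 fell less than P2ry12 did. Among them Tmem119 went from a mean of 53.9 to 14 CPM and C1qa from 70.2 to 68.5.

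Both remaining adenosine receptors were lower after stroke. Adora3 had 50, 44 and 28 counts in Sham, 1, 2 and 2 in Model, 3, 4 and 2 in rt-PA and 25, 33 and 25 in rt-PA+Acu. Summed over libraries, 122 counts in Sham against 5 in Model gave a ratio of 24.5 with a counting interval of 10.2 to 76.8, which covers counting error only. Its log2 change was −4.49 (edgeR adjusted p 0.000177) after stroke and 3.35 (adjusted p 0.00267) with acupuncture.

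Adora2a, the receptor of striatal projection neurons, read 7.03, 75.3 and 58.0 CPM in Sham against 3.36 to 9.51 in Model, 5.23 to 8.67 in rt-PA and 3.92 to 6.14 in rt-PA+Acu. Sham replicate 1 lay with the clot animals. The summed CPM of 6 striatal neuron markers was 430 in that library, 1017 and 808 in the other Sham libraries and 160 to 311 in all other libraries. The log2 change of −3 after stroke (SE 0.77, edgeR adjusted p 0.0109) moved with these markers, and the part of striatal tissue in it was not tested. Against Sham, the rt-PA+Acu level of Adora2a differed by −3.23 (edgeR adjusted p 0.0467), a call lost in 6 of 13 alternatives. Its adjusted p was 0.171 and 0.126 without Sham replicate 2 or 3, and 0.0666, 0.132 and 0.0813 without rt-PA+Acu replicate 1, 2 or 3.

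**Figure D4:**
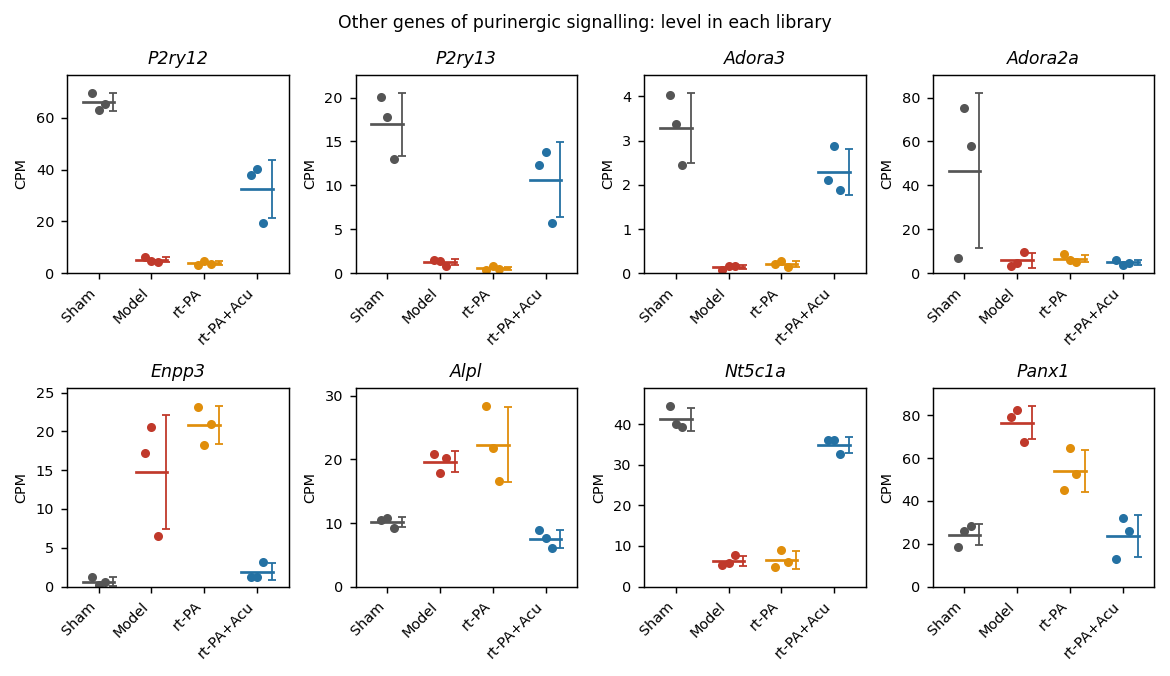
Level (CPM, linear axis from 0) of 8 further purinergic genes in each of the 12 libraries by group; points are libraries, lines group means and error bars 1 SD (n = 3). P2ry12, P2ry13, Adora3 and Nt5c1a are near the bottom of their axes in Model and rt-PA and higher in Sham and rt-PA+Acu, while Enpp3, Alpl and Panx1 show the reverse.

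Among the other nucleotide-splitting ectoenzymes, 9 were tested after stroke, with 1 called higher and 2 lower, against 9.43% and 12% of all genes. Enpp3, which splits ATP to AMP at the cell surface, read 1.21, 0.153 and 0.524 CPM in Sham, 17.3, 20.6 and 6.45 in Model, 23.2, 18.2 and 21.0 in rt-PA and 1.26, 1.22 and 3.15 in rt-PA+Acu. Its log2 change was 4.55 (SE 0.63, edgeR adjusted p 0.000563) after stroke and −3.44 (adjusted p 0.00135) with acupuncture. The tissue-nonspecific alkaline phosphatase Alpl, which can also form adenosine from AMP, changed by 0.97 after stroke (edgeR adjusted p 0.000932, under 2-fold) and changed by −1.57 with acupuncture (adjusted p 0.00416).

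Enpp2 (autotaxin) and Entpd3 were lower after stroke, with log2 changes of −1.78 and −1.38 and edgeR adjusted p-values of 0.00125 and 0.0169. Entpd3 was not called after stroke without Sham replicate 2 or 3, where the adjusted p was 0.0532 and 0.0623. Inside cells, 1 of the 9 tested enzymes of adenosine and AMP was called lower after stroke, against 12% of all genes. With acupuncture added 1 of 9 was called higher, against 7.17%. Nt5c1a, a cytosolic nucleotidase that also makes adenosine from AMP, read 44.5, 40.0 and 39.3 CPM in Sham, 5.42, 5.84 and 7.77 in Model, 4.79, 9.11 and 5.97 in rt-PA and 36.0, 36.2 and 32.7 in rt-PA+Acu. It changed by −2.69 (edgeR adjusted p 1.56e-05) after stroke and by 2.40 (adjusted p 0.00118) with acupuncture, so that of the genes forming adenosine from AMP, Nt5e and Alpl were higher after stroke and Nt5c1a lower.

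None of the 5 nucleoside transporters tested was called in any comparison. Of all genes, 21.5%, 0%, 15.3% and 2.06% were called in the 4 comparisons. Slc29a1 (ENT1), the equilibrative adenosine transporter, changed by −0.93 after stroke (edgeR adjusted p 0.104). The change was −1.66 (adjusted p 0.0016) without Model replicate 3 and −1.095 (adjusted p 0.0365) with replicate number as a block. Over all 13 alternatives, in edgeR or DESeq2, it ran from −1.66 to −0.61, and the highest adjusted p was 0.256. Of the 6 ATP release genes tested, Panx1 was called higher and Panx2, Gja1 and Calhm2 lower after stroke. The shares of all genes called higher and lower were 9.43% and 12%. Panx1, which forms ATP-permeable pannexin channels, read 18.6, 25.7 and 28.2 CPM in Sham, 79.3, 82.7 and 67.8 in Model, 45.3, 64.6 and 52.4 in rt-PA and 12.9, 31.9 and 25.8 in rt-PA+Acu.

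The log2 change of Panx1 was 1.67 (SE 0.16, edgeR adjusted p 0.000103) after stroke and −1.2 (SE 0.31, adjusted p 0.0215) with acupuncture. The second call was lost without rt-PA replicate 2 (adjusted p 0.0565), rt-PA replicate 3 (0.0554) or rt-PA+Acu replicate 1, where the change was −0.90. Gja1 (connexin 43), the astrocyte gap junction protein, changed by −1.92 (edgeR adjusted p 0.000245) after stroke and by 1.18 (adjusted p 0.00401) with acupuncture. Panx2 changed by −1.45 and 0.76 (edgeR adjusted p 8.24e-05 and 0.0373), and Calhm2 by −2.83 and 1.54 (0.000316 and 0.00378). Calhm2, like P2ry2, is among the genes the study selected from these libraries.

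**Figure D5:**
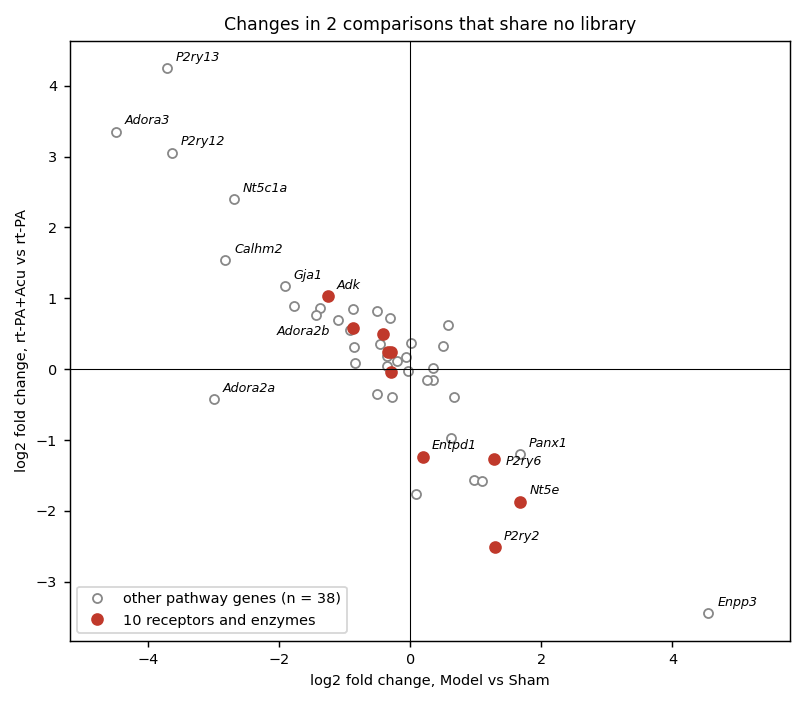
Log2 fold change in Model against Sham (x axis) and in rt-PA+Acu against rt-PA (y axis), comparisons that share no library; filled points are the 10 purinergic genes and open points 38 other pathway genes tested in both. Of the 10 genes, Nt5e, P2ry2 and P2ry6 lie at lower right, Adk and Adora2b at upper left and Entpd1 near 0 on the x axis with −1.24 on the y axis.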

How the data were processed

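Poly(A) RNA of 12 cortical libraries was made into strand-marked (dUTP) libraries and sequenced as paired reads of 150 bases. The deposited table holds whole-number counts per gene symbol, made by the authors, whose processing notes name STAR 2.7.10a, Salmon 1.9.0, featureCounts 2.0.1 and build mRatBN7.2. Which tool gave the counts, and whether molecular identifiers were used, is not given in the sources used here.

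From these counts, edgeR 4.0.16 (R 4.3.3; TMM, filterByExpr, glmQLFit and glmQLFTest) compared each pair of groups over all genes on 6 libraries. SE and 95% intervals come from the same fit, and two-sided p-values were adjusted by Benjamini-Hochberg. CPM and correlations (log2 CPM, prior count 2) use all 12 libraries. Scripts were tested on simulated data; figures used matplotlib 3.10.9 in Python 3.11.15. Alternatives were DESeq2 1.42.0, other scalings and filters, 1 fit of 12 libraries, a replicate block and leaving out each library. Comparisons next to each other share a group. Same-numbered libraries did not all deviate together (correlations of deviations -0.12 to 0.144), so they were treated as unpaired.

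The members, pathway lists and marker lists were chosen with earlier results of these data known. All 10 members are named, with pathway genes called in at least 1 comparison, P2ry12, P2ry13, Adora2a, Adora3 and Slc29a1, and the 3 genes most correlated with each called member. Marker genes are named where they define a cell type and bear on a member. 1 marker gene is not reported here.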

Additional observations from a re-analysis of the deposited data

How the results depend on the processing

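Of 520 values of the 10 genes under alternatives, 506 stayed on the same side of the threshold, 11 lost the call and 3 gained it, as did 735 of 761 values of the named pathway genes, with 19 lost and 7 gained. The sign changed in 21 of the first and 22 of the second, all of them values called in neither fit, and 0 called values reversed. With DESeq2, 1 of the 10 genes (P2ry2) was called in rt-PA against Model, where edgeR called 0, and the cause was not tested. The share of all genes that DESeq2 called there is not reported here. Leaving out 1 library gave 3 to 4 called members in Model against Sham and 3 to 5 in rt-PA+Acu against rt-PA, with 3 when rt-PA replicate 1 or rt-PA+Acu replicate 1 was absent and 5 in the full comparison. With no fold threshold, 20 of 38 pathway genes were called in Model against Sham (13 with it), against 54% of all genes (21.5% with it). In rt-PA+Acu against rt-PA 15 of 39 were called (9 with it), against 34.8% of all genes (15.3% with it). That setting drops one condition. Pathway genes called in rt-PA+Acu against Sham, 2 in the full comparison (P2ry12 and Adora2a), were 0 under the replicate block and 0 to 1 with 1 library left out, where fewer libraries entered. The replicate block left the count of called members at 4, 0, 5 and 0 in the 4 comparisons, and the numbers share no stated animal or batch. In Model against Sham every library correlated best with its own number, which is a hint from the data only. Having 3 libraries a group and counts as low as 16 (P2ry2) or 1 (Adora3) limits the precision.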
